A study of Mus musculus with 6 samples.

Results

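The TAM family of receptor tyrosine kinases has the members Tyro3, Axl and Mertk, and Gas6 and protein S (encoded by Pros1) are its ligands. The ligands are vitamin K-dependent proteins that bind phosphatidylserine, the lipid exposed on dying cells, through a Gla domain, and bind the receptors with their other end. TAM signaling is known for the engulfment of apoptotic cells by macrophages and for dampening inflammation. Gas6 prefers Axl and also binds Tyro3 and Mertk, whereas protein S acts on Tyro3 and Mertk.

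These 5 genes were found by symbol among the 20071 gene IDs of the count table, and all 5 passed the expression filter that left 13733 genes for testing. The family was chosen with its differences between the genotypes in these same libraries known, so the contrast of its members is given below as a description with no p-value, and how many members were called is printed only beside the share of all genes.

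The study asked how loss of Pcif1, the writer of the m6Am mark next to the mRNA cap, acts on bone-forming cells. Marrow MSCs (mesenchymal stem cells) were taken from femurs of 6-week-old Pcif1fl/fl mice (labelled WT, here called control, since both genotypes carry the floxed Pcif1 allele) and Prrx1-Cre;Pcif1fl/fl mice (labelled CKO). The control mice lack Cre. Prrx1-Cre is active in limb mesenchyme. All cultures received osteogenic medium with ascorbic acid, β-glycerophosphate and dexamethasone for 7 days, and 3 poly(A) RNA libraries per genotype were sequenced by the labels and the columns of the table, although the deposited design text speaks of duplicates. Whether each library is a separate mouse or culture is not given in the sources used here, so errors and p-values measure only the spread between these samples, which may be technical.

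The libraries held 20258209 to 28227696 counts, and levels are CPM, counts scaled to library size with TMM factors. Control replicate 3 stood apart, with 3.63% of its counts on mitochondrial genes against 1.40% to 1.57% in the other 5 libraries. The genotypes also differed in Xist, the RNA that coats the inactive X chromosome, at 232 to 443 CPM in control and 0.722 to 1.79 CPM in CKO MSCs. The Y-linked Ddx3y was found in every library, at 48.4 to 62.2 and 99.1 to 104 CPM. The sex make-up of the cultures and the genotype therefore cannot be told apart in any result below. Pcif1 itself was at 39.3 to 42.8 CPM in control and 37.8 to 39.7 CPM in CKO MSCs. Its log2 fold change was -0.085 (edgeR adjusted p = 0.645), so these counts do not show the loss of Pcif1. A count over the whole gene does not show a deletion of internal exons. Of the Pcif1 exonic bases 16.9% overlap those of Zfp335 on the other strand.

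The cultures expressed mesenchymal genes, with Prrx1 at 211 to 283 CPM and Col1a1, a chain of the main bone collagen, at 3485 to 6359 CPM over the 6 libraries. Bglap, which encodes osteocalcin of mature osteoblasts, was near 0, at 0.0450 to 0.249 CPM. Macrophage markers were abundant in every library. Lyz2 was at 21980 to 26233 CPM, Adgre1 (F4/80) at 393 to 625 CPM and Ptprc (CD45) at 171 to 245 CPM. Macrophages are a main site of Mertk and Axl expression, and in such bulk libraries fewer cells of a type and less RNA per cell cannot be told apart.

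PCIF1 methylates an mRNA whose first base is A, so the annotated starts of the 5 genes are shown. The windows are 30 bases of GRCm38.p6 from RefSeq, read 5′ to 3′ on the strand of the gene, with the annotated first base of the transcript in capitals.
Gas6: ccccgccctcAcccgctgcctccttcacgg
Pros1: gcccgcccgcGctcgggctgggccgcggca
Axl: gggcggaggcAgagggggagccaggggcgg
Mertk: tccgcactgcCactctggcgcctgctgccc
Tyro3: ctccgcggagGgcgggcgggcgggccggga
In GRCm38.p6 these windows lie at chr8:13494516-13494545 (minus strand), chr16:62854297-62854326 (plus), chr7:25788714-25788743 (minus), chr2:128698905-128698934 (plus) and chr2:119799504-119799533 (plus), in the order of the list. Gas6 and Axl had A as the RefSeq first base, as did 34.4% of the 32851 RefSeq promoters. The 5′ end of the GENCODE gene, over all its transcripts, differed from the RefSeq start for every member but Pros1. The distance was 45 bases for Gas6, 28 for Axl, 41 for Mertk and 1781 for Tyro3. None of the GENCODE coding transcripts of the 5 genes started with A, against 30.9% of 58797 transcripts of all genes. The annotations thus gave different first bases for Gas6 and Axl, and these counts hold no measurement of the start used.

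A set of 3 motifs was searched on both strands of the 300 bases around each RefSeq start. GGGCGG, the GC box bound by Sp1, occurred 4 times at Gas6, 5 at Pros1, 2 at Axl, 4 at Mertk and 6 at Tyro3, and 35.7% of all promoters held it. GGAATG, the TEAD core, occurred 1 time, at Axl, and in 14.7% of all promoters. TGANTCA, the AP-1 site, was in 0 of the 5 windows and in 7.81% of all promoters. None of the 3 motifs contains another, and a match of letters is not a measured binding site.

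Among the ligands, Gas6 was lower and Pros1 was about level in CKO MSCs. Gas6 (ENSMUSG00000031451, chromosome 8, 13465374 to 13494490, minus strand) was at 2586, 2418 and 2237 CPM in control replicates 1 to 3 and at 1575, 1544 and 1520 CPM in CKO replicates 1 to 3. All 3 CKO libraries lay below all 3 control libraries, and the spread was wider in the controls (SD 175 against 27.6 CPM, n = 3 each). The log2 fold change was -0.64 (standard error 0.092), or 0.641 times the control level. Gas6 was still among the most abundant transcripts of these cultures, ranking 22 to 30 by counts in the control and 45 to 48 in the CKO libraries. Of its exonic bases 1.33% overlap those of Tmem255b on the other strand, and the use of strand in counting is not given in the sources used here.

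Pros1 (ENSMUSG00000022912, chromosome 16, 62854307 to 62929346, plus strand) was at 183, 190.2 and 156 CPM in control replicates 1 to 3. In CKO replicates 1 to 3 it was at 188, 183 and 187 CPM, within the range of the controls. The log2 fold change was 0.077 (standard error 0.098) and became -0.0025 without control replicate 3, the lowest library. Per kilobase of exon, Gas6 was 22.0 ± 1.41 times Pros1 in control and 13.3 ± 0.262 times Pros1 in CKO MSCs (mean ± SD, n = 3). The ligand pool was therefore mostly Gas6 transcript in all 6 libraries, by a smaller margin in CKO MSCs.

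**Figure D1:**
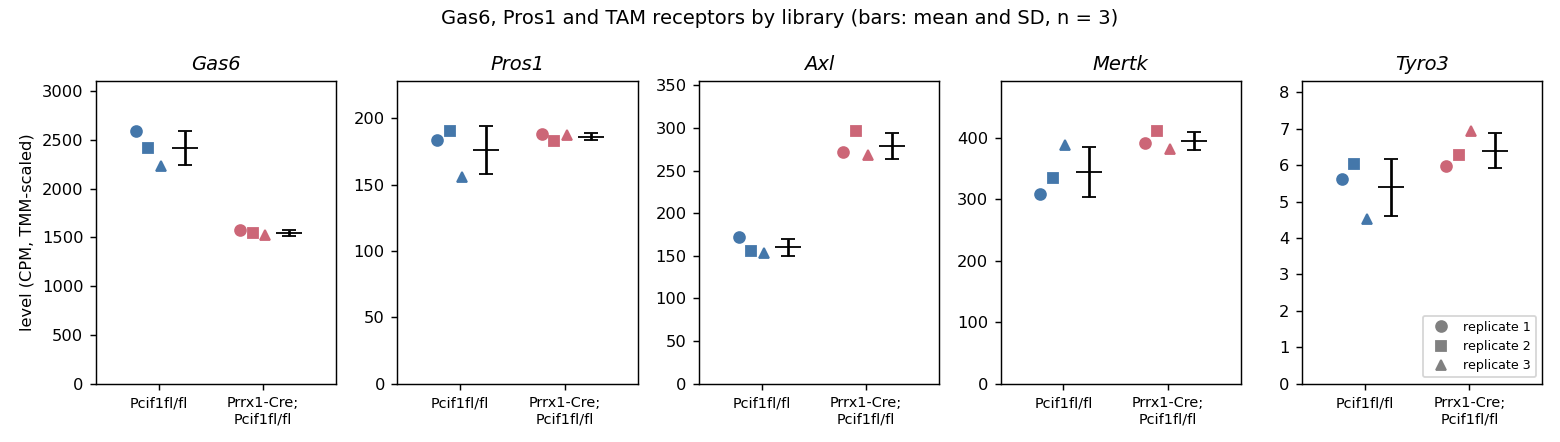
CPM of each gene (linear axes from 0) in the 3 libraries of each genotype, with symbols for replicates and bars for mean and SD. Gas6 falls from 2413 to 1547 CPM and Axl rises from 160.3 to 279 CPM on average without overlap, and the points of Pros1, Mertk and Tyro3 overlap between genotypes.

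Among the receptors, Axl was higher in CKO MSCs, while Mertk and Tyro3 overlapped. Axl (ENSMUSG00000002602, chromosome 7, 25757273 to 25788705, minus strand) was at 172, 156 and 153 CPM in control replicates 1 to 3 and at 272, 296 and 268 CPM in CKO replicates 1 to 3. The lowest CKO library was above the highest control by more than the range within either group. The log2 fold change was 0.80 (standard error 0.091), a level 1.74 times that of the controls.

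Mertk (ENSMUSG00000014361, chromosome 2, 128698956 to 128802894, plus strand), the receptor best known for the uptake of dying cells by macrophages, was at 308, 335 and 389 CPM in control replicates 1 to 3. In CKO replicates 1 to 3 it was at 392, 410.2 and 382 CPM. The groups overlapped only in that control replicate 3 was above CKO replicate 3. The log2 fold change was 0.20 (standard error 0.11), and 0.30 (standard error 0.064) without control replicate 3.

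Tyro3 (ENSMUSG00000027298, chromosome 2, 119797733 to 119818104, plus strand), which is best known from the nervous system, was scarce. It was at 5.63, 6.03 and 4.52 CPM in control replicates 1 to 3 and at 5.99, 6.27 and 6.93 CPM in CKO replicates 1 to 3, from 126 to 164 counts a library. The groups overlapped, and the log2 fold change of 0.25 (standard error 0.17) became 0.13 without control replicate 3.

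Over all genes, the quasi-likelihood test of edgeR, Benjamini-Hochberg adjusted and with a threshold of 0.05, called 4.51% lower and 2.88% higher in CKO MSCs, and 3.53% in either direction at a fold change of 2 or more. Of the 5 members 1 was called lower (Gas6), 1 higher (Axl) and 0 at the larger fold. The libraries of the genotypes did not overlap for 30.8% of all genes, and for Gas6 and Axl among the members. Because the members were selected on this contrast, nothing is read from these counts.

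The order of levels per kilobase differed between the genotypes in 1 place. In control MSCs the order was Gas6 at 947 ± 68.6, Mertk at 79.3 ± 9.44, Pros1 at 43.2 ± 4.45, Axl at 31.9 ± 1.97 and Tyro3 at 0.870 ± 0.126 CPM per kilobase (mean ± SD, n = 3). In CKO MSCs it was Gas6 at 607 ± 10.8, Mertk at 91.0 ± 3.32, Axl at 55.4 ± 3.00, Pros1 at 45.5 ± 0.659 and Tyro3 at 1.03 ± 0.0779. Axl and Pros1 thus changed places, and no library of a gene reached the range of its neighbour within a genotype.

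Gas6 stood at 29.7 ± 0.929 times Axl per kilobase in control and 11.0 ± 0.604 times Axl in CKO MSCs (n = 3). Of the summed level of the 3 receptors per kilobase, Axl made up 32.1%, 28.4% and 25.2% in control replicates 1 to 3 and 37.2%, 38.1% and 37.4% in CKO replicates 1 to 3. Mertk was the larger part in all 6 libraries, at 70.6 ± 3.58% and 61.8 ± 0.454%. The Mertk to Axl ratio went from 2.51 ± 0.428 to 1.64 ± 0.0326, and among the controls replicate 3 was the highest for Mertk and the lowest for Axl.

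**Figure D2:**
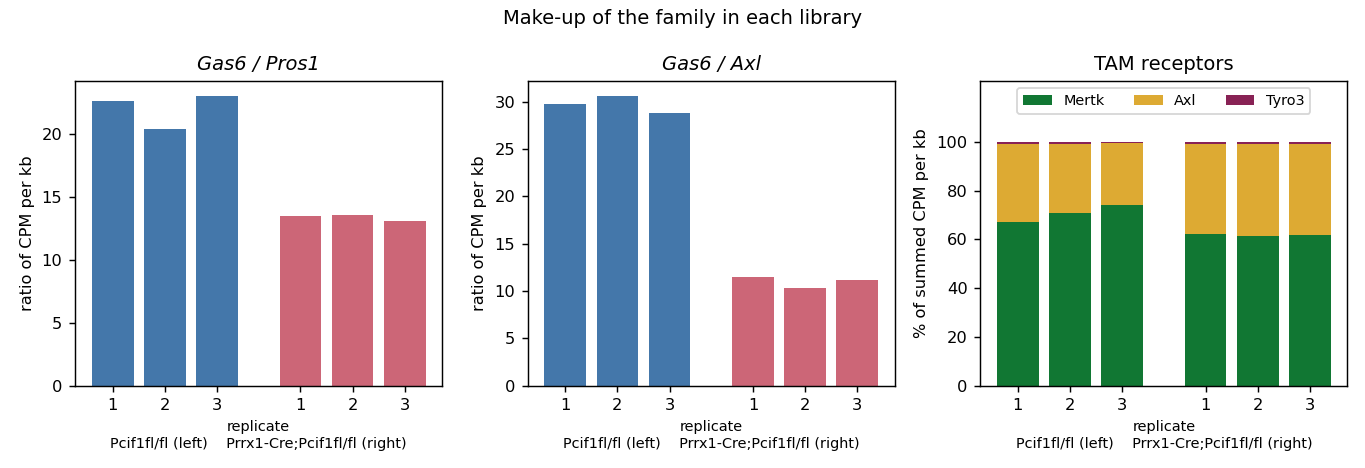
Ratios of CPM per kilobase of Gas6 to Pros1 and Gas6 to Axl (bars from 0), and the percentage of the summed receptor level held by Mertk, Axl and Tyro3, for each library. The Gas6 to Axl ratio lies between 28.8 and 30.6 for Pcif1fl/fl and between 10.3 and 11.5 for Prrx1-Cre;Pcif1fl/fl libraries, and Tyro3 is under 1% in every bar.

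Set among the receptor tyrosine kinases of the table, Mertk and Axl were among the most abundant. By mean CPM per kilobase over 50 such receptors, Mertk ranked 2 in both genotypes, behind Csf1r, the macrophage growth factor receptor, at 203 and 169. Axl moved from rank 5 to 3, past Pdgfrb and Ddr2, and Tyro3 from 26 to 24.

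Of the 38 other receptor tyrosine kinases tested, 11 fell and 2 rose, with a median log2 fold change of -0.25 against 0.0017 over all genes tested. Epha2, an ephrin receptor, rose from 20.1 ± 0.989 to 47.6 ± 0.795 CPM (n = 3), by 1.25 on the log2 scale (edgeR adjusted p = 0.000228). Epha3, another ephrin receptor, rose from 24.6 ± 2.46 to 46.3 ± 3.55 CPM (log2 fold change 0.91, edgeR adjusted p = 0.00231). Those that fell included Ror1, a Wnt5a receptor, by 1.64 on the log2 scale (edgeR adjusted p = 0.000614), Ret, the GDNF family receptor, by 1.85 (0.000743), and Fgfr2, a fibroblast growth factor receptor, by 1.12 (0.000744). These 5 calls were kept in all 14 alternative analyses, but the counts were not. Of the list 5 fell without any 1 CKO library and 7 without control replicate 2, and 15 fell and 5 rose without control replicate 3. Csf1r, the most abundant receptor of the list, was at 1170 ± 77.1 and 978 ± 33.0 CPM and did not pass (edgeR adjusted p = 0.141).

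**Figure D3:**
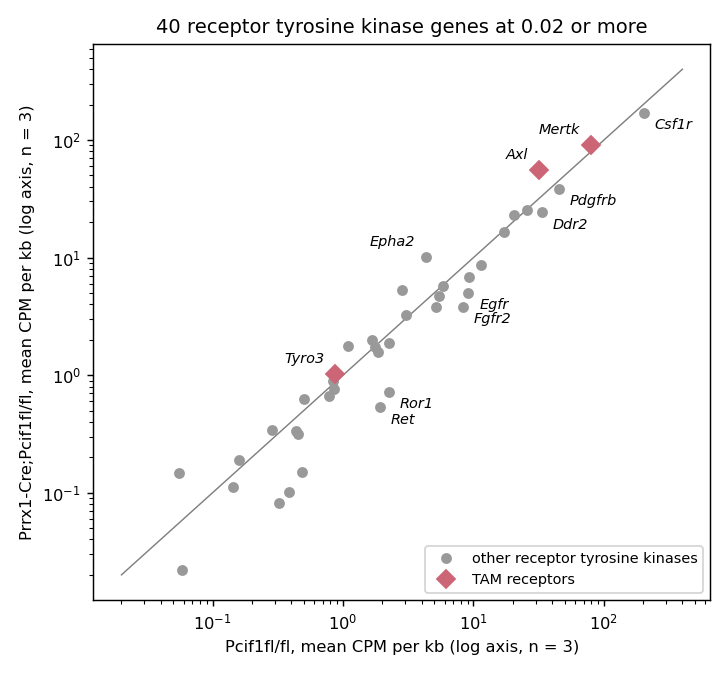
Mean CPM per kilobase of exon in Pcif1fl/fl (x axis) and Prrx1-Cre;Pcif1fl/fl MSCs (y axis), both on log axes, for the 40 receptor tyrosine kinase genes at 0.02 or more in both genotypes, with a line of equal level. Mertk lies near the line at 79.3 and 91.0, Axl above it at 31.9 and 55.4, and Ret and Ror1 below it.

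The TAM ligands need vitamin K-dependent carboxylation and, for their maturation, removal of a propeptide. Of the 7 genes of these steps, 0 fell and 1 rose, with a median log2 fold change of 0.13. At an unadjusted p under 0.05 edgeR had 0 lower, and DESeq2 and limma called 0 lower. The one that rose was Calu, which encodes calumenin, an inhibitor of the carboxylase in the endoplasmic reticulum, and which was also the most abundant of them. It was at 538, 522 and 535 CPM in control replicates 1 to 3 and at 667, 696 and 668 CPM in CKO replicates 1 to 3 (log2 fold change 0.35, standard error 0.080, edgeR adjusted p = 0.0357). The call was lost when any library but control replicate 3 was left out (adjusted p from 0.00042 to 0.161 over 14 alternatives), and without that library 2 genes of the list rose. The carboxylase gene Ggcx was at 34.7 ± 5.86 and 33.8 ± 1.15 CPM (n = 3).

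Of the other genes for Gla proteins, 9 were tested, of which 1 fell and 3 rose, with a median log2 fold change of 0.38. Prrg1, Prrg3 and Prrg4 encode transmembrane Gla proteins, and F10 encodes coagulation factor X. Prrg1 fell by 0.90 on the log2 scale (edgeR adjusted p = 0.0266), whereas Prrg4 rose by 0.75 (0.0171), F10 by 0.94 (0.0265) and Prrg3 by 1.33 (0.0391). All were low, with means of at most 20.1 CPM in either genotype. The call of Prrg3 was lost with limma-voom, and each of these calls was lost when certain single libraries were left out, with adjusted p reaching 0.128 for Prrg1, 0.0921 for Prrg4, 0.129 for F10 and 0.164 for Prrg3. The libraries were control replicate 2 for Prrg1, F10 and Prrg3, control replicate 1 for F10 and Prrg3, and among those of CKO replicates 2 and 3 for Prrg1, 1 to 3 for Prrg4, 1 and 3 for F10, and 1 and 2 for Prrg3. Mgp, the matrix Gla protein that restrains calcification, was the most abundant of them. Its levels were 903, 807 and 335 CPM in control replicates 1 to 3 and 828, 882 and 819 CPM in CKO replicates 1 to 3, and it did not pass (edgeR adjusted p = 0.614).

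Protein S also serves as a cofactor in anticoagulation. Of its partners there, 5 were tested and 0 were called by edgeR's quasi-likelihood test, with a median log2 fold change of -0.33. The most abundant, Thbd (thrombomodulin), was at 35.6 ± 3.83 and 49.6 ± 5.23 CPM without overlap (n = 3, edgeR adjusted p = 0.054). At an unadjusted p under 0.05, 1 gene of this list was lower and 1 higher, while DESeq2 called 1 higher and limma 0. Without control replicate 3, edgeR called 1 higher.

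Phosphatidylserine is also read by other bridging proteins and receptors, of which 15 were tested, 0 fell and 3 rose, with a median log2 fold change of 0.14. Cd300lf, a myeloid receptor for phosphatidylserine, was at 27.3, 26.9 and 23.2 CPM in control replicates 1 to 3 and at 51.7, 59.2 and 43.3 CPM in CKO replicates 1 to 3 (log2 fold change 0.99, standard error 0.14, edgeR adjusted p = 0.00351). Itgav, the αv integrin chain through which the bridging proteins MFG-E8 and DEL-1 engage phagocytes, rose from 227 ± 24.4 to 368 ± 24.2 CPM (log2 fold change 0.70, edgeR adjusted p = 0.00583). Edil3, which encodes DEL-1, rose from 55.6 ± 3.90 to 85.0 ± 2.64 CPM (log2 fold change 0.61, edgeR adjusted p = 0.00544). These 3 calls were kept in all 14 alternatives, and 0 genes were lower by edgeR's unadjusted p under 0.05, DESeq2 or limma. Without control replicate 3, 1 gene of the list fell and 6 rose. Lrp1, an engulfment receptor and the most abundant of the list, was at 3524 ± 16.7 and 3963 ± 142 CPM and did not pass (edgeR adjusted p = 0.303).

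Of 15 genes for engulfment and lipid exposure, 1 fell and 0 rose, with a median log2 fold change of -0.039. At an unadjusted p under 0.05 edgeR had 1 higher, and DESeq2 and limma called 0 higher. Gulp1, an engulfment adaptor, was at 27.1, 24.2 and 43.2 CPM in control replicates 1 to 3 and at 14.3, 14.2 and 14.5 CPM in CKO replicates 1 to 3 (log2 fold change -1.14, standard error 0.21, edgeR adjusted p = 0.0144). Leaving out any 1 of the CKO libraries ended that call (adjusted p up to 0.0764), and without control replicate 3 the list had 1 that fell and 2 that rose. Sirpa, the receptor of the CD47 signal that restrains engulfment, was the most abundant of them, at 825 ± 45.6 and 909 ± 20.1 CPM (edgeR adjusted p = 0.406).

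Downstream of the receptors, 32 genes of signal transduction and feedback were tested, of which 1 fell and 1 rose, with a median log2 fold change of 0.015. Pik3r1, a regulatory subunit of the PI3 kinase that TAM receptors recruit, fell from 365 ± 50.0 to 236 ± 17.0 CPM (log2 fold change -0.63, edgeR adjusted p = 0.0149). Ubash3b, a phosphatase of the Sts family, rose from 46.3 ± 2.80 to 69.6 ± 3.39 CPM (log2 fold change 0.59, edgeR adjusted p = 0.00726). Pik3r1 was no longer called without CKO replicate 1 or 3 (adjusted p up to 0.0937), nor Ubash3b without CKO replicate 1 (0.0588). Without control replicate 3, 4 genes of the list fell and 4 rose. At an unadjusted p under 0.05 edgeR had 2 lower and 5 higher with all libraries. DESeq2 called 1 lower and 3 higher, and limma 1 lower and 1 higher. The feedback inhibitors Socs1 and Socs3, which TAM signaling induces in myeloid cells, were at means of 2.33 and 2.64 CPM and of 69.5 and 76.5 CPM in the order of genotypes above, with overlapping libraries. Akt1, the kinase downstream of PI3 kinase, was the most abundant of the list at 369 ± 45.9 and 396 ± 5.35 CPM (edgeR adjusted p = 0.637).

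Axl and Mertk are shed from the cell surface by the proteases ADAM10 and ADAM17. Of the 5 genes of shedding and its control, 0 were called by edgeR's quasi-likelihood test, 0 had an unadjusted p under 0.05, and DESeq2 and limma called 0, with a median log2 fold change of -0.0030. Without control replicate 3 edgeR called 3 of them, Rhbdf1 lower (log2 fold change -0.29, adjusted p = 0.0201) and Timp3 (0.41, 0.000221) and Adam10 (0.23, 0.028) higher. Adam17 was at 148.1 ± 10.6 and 147.8 ± 5.68 CPM and Adam10 at 199 ± 15.4 and 224 ± 10.9 CPM (n = 3). The most abundant was Timp3, an inhibitor of these proteases, at 402 ± 71.5 and 479.9 ± 20.8 CPM (edgeR adjusted p = 0.307).

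Among 19 genes for transcription factors that act on TAM genes in other settings, 3 fell and 1 rose, with a median log2 fold change of -0.050. Pparg, the adipogenic nuclear receptor, fell from 30.3 ± 5.00 to 10.2 ± 0.705 CPM (log2 fold change -1.57, edgeR adjusted p = 0.000557), a call kept in all 14 alternatives. Nr1h3 (LXRα), a lipid-sensing receptor known to induce Mertk in macrophages, fell by 0.53 on the log2 scale (edgeR adjusted p = 0.0191), and Tead2, a partner of YAP, by 0.82 (0.0135). Fosl1, an AP-1 subunit, rose by 0.96 (edgeR adjusted p = 0.0349) at means of 2.15 and 4.17 CPM. Nr1h3 was no longer called without any 1 library other than control replicate 3 (adjusted p up to 0.128). Fosl1 lost its call without control replicate 1 or 2 or CKO replicate 1 or 3 (up to 0.160), and Tead2 without CKO replicate 1 or 3 (up to 0.0817). Without control replicate 3, 4 genes of the list fell and 3 rose.

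Counting each gene once, the pathway lists held 145 tested genes, of which 17 fell and 11 rose, or 11.7% and 7.59% against 4.51% and 2.88% of all genes. Without control replicate 3, 27 fell and 28 rose, with 1447 and 1544 calls over all genes in place of 620 and 396. Without any 1 CKO library, 6 to 8 fell and 5 to 8 rose, and 15 and 7 did so without control replicate 1 and 11 and 7 without control replicate 2. The other receptor tyrosine kinases supplied 11 of the 17 that fell. The lists were written with earlier results of these data known, so nothing is read from their shares beside those of all genes.

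**Figure D4:**
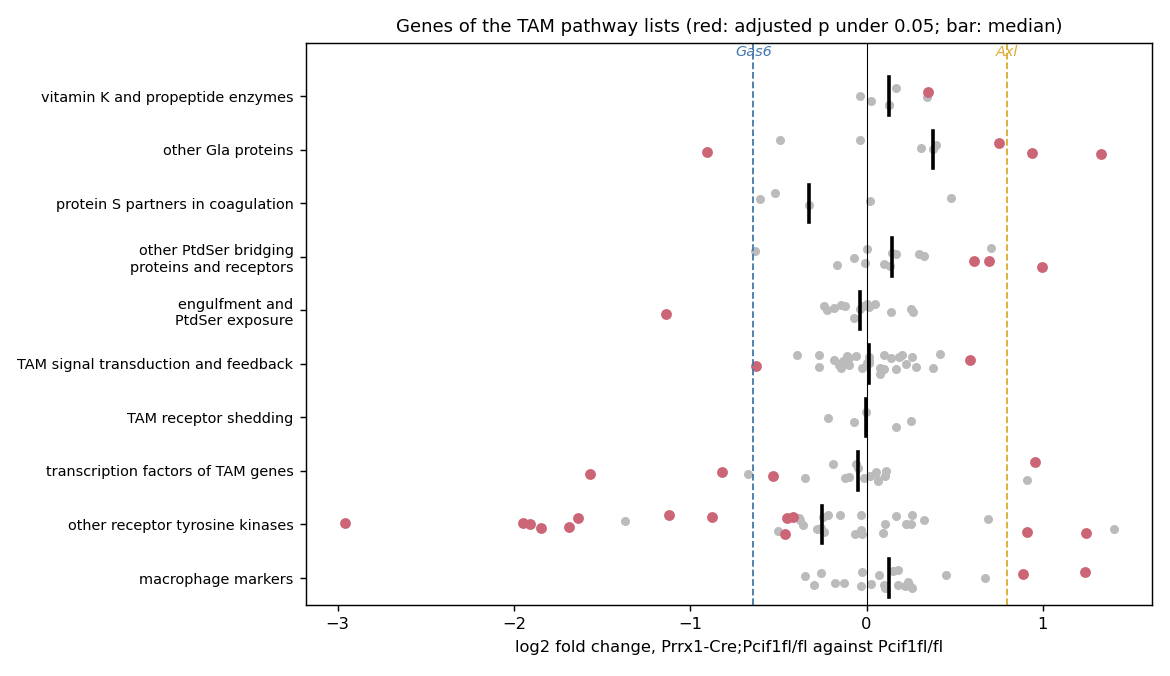
Log2 fold change (Prrx1-Cre;Pcif1fl/fl against Pcif1fl/fl) of every tested gene of the 9 pathway lists and of the macrophage markers, with called genes in red, list medians as black bars and dashed lines at the values of Gas6 (-0.64) and Axl (0.80). The median of the other receptor tyrosine kinases is at -0.25 and that of the macrophage markers at 0.13.

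Markers of the cell types that these cultures could hold were measured beside the family. The summed level of 22 macrophage markers was 36692 to 39097 CPM in control and 36549 to 39803 CPM in CKO MSCs with overlapping ranges. Lyz2 alone made up most of this sum, and 6 of the 22 markers lay wholly above and 1 wholly below the controls in CKO libraries, where 30.8% of all genes did not overlap. Of these markers 0 fell and 2 rose, namely Fcgr1, a high-affinity IgG receptor (log2 fold change 0.89, edgeR adjusted p = 0.00605), and Cx3cr1, the fractalkine receptor (1.24, edgeR adjusted p = 0.0293), and none was at 0. Cx3cr1 lost its call without control replicate 1 or 2 or CKO replicate 1 or 2 (adjusted p up to 0.116), and without control replicate 3 the counts were 1 lower and 6 higher. With all libraries, 1 marker was lower at an unadjusted p under 0.05, and DESeq2 called 0 lower and 4 higher, limma 0 and 2. The part of macrophage RNA in the levels of the family was not tested.

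The 15 mesenchymal and osteoblast markers summed to 20106 to 24744 CPM in control and 24988 to 34070 CPM in CKO MSCs, with a gap between the groups that was smaller than the range within either. The sum is mostly Spp1 (osteopontin), Col1a2 and Col1a1. Spp1 was at 9543 to 16544 and 11786 to 19992 CPM (edgeR adjusted p = 0.375), Col1a2 at 3226 to 4707 and 6204 to 6500 CPM (0.0322), and Col1a1 at 3485 to 4491 and 5828 to 6359 CPM (0.0154).

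Of the 14 tested, 5 fell and 4 rose, so the sum does not describe the list. Those that fell were Sp7 (osterix), the osteoblast transcription factor, by 1.88 on the log2 scale (edgeR adjusted p = 0.000432), Alpl, the mineralization phosphatase, by 1.11 (0.000464), Ibsp, bone sialoprotein, by 1.25 (0.000585), Eng by 1.11 (0.00507) and Pdgfra by 0.42 (0.0244). Ibsp went from 447 ± 52.2 to 188 ± 18.7 CPM (n = 3). Besides the collagen genes, Ly6a (Sca-1) rose by 1.12 (edgeR adjusted p = 0.0254) and Thy1 by 1.52 (0.0113). Sp7, Alpl, Ibsp and Eng were called in all 14 alternatives. The others were lost without single libraries, with adjusted p up to 0.155 for Pdgfra, 0.108 for Ly6a, 0.0590 for Thy1, 0.0927 for Col1a1 and 0.142 for Col1a2. These libraries were CKO replicate 1 for all 5, CKO replicate 2 for all but Col1a1, CKO replicate 3 for all but Thy1, and control replicate 2 for all but Thy1. Without CKO replicate 1, 4 fell and 0 rose, and without control replicate 3, 6 fell and 7 rose. The part of these changes in the levels of Gas6 and Axl was not tested.

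Markers of the remaining cell types were low. The 8 osteoclast markers summed to 160 to 171 CPM in control and 205 to 243 CPM in CKO MSCs, with 0 of 5 tested called by edgeR, 2 higher at an unadjusted p under 0.05, 1 higher by DESeq2, 1 higher by edgeR without control replicate 3, and 0 by limma. Ctsk led them at 81.2 to 115 and 126 to 134 CPM, followed by Atp6v0d2, a proton pump subunit, at 34.9 to 71.6 and 70.2 to 96.9 CPM (log2 fold change 0.78, edgeR adjusted p = 0.107). Acp5 was at 4.30 to 7.34 and 5.77 to 7.83 CPM, and the fusion gene Dcstamp at 0 to 0.315 CPM over the 6 libraries. The 9 endothelial markers summed to 27.3 to 40.1 and 24.2 to 26.2 CPM, and the megakaryocyte markers to 5.38 to 9.39 and 9.81 to 11.9 CPM, with 0 called by edgeR in either list. At an unadjusted p under 0.05, 1 endothelial marker was lower and 2 megakaryocyte markers were higher, and DESeq2 called 1 endothelial marker lower and limma 0 in either. Without control replicate 2 or 3, edgeR called 1 endothelial marker lower. Neutrophil markers summed to 1.00 to 1.14 and 1.30 to 1.98 CPM, where S100a8 rose (log2 fold change 1.45, edgeR adjusted p = 0.0394, a call lost with the GC and length correction and without any 1 library other than control replicate 3, up to 0.161) and Ly6g, Mpo and Ngp were at or near 0. The part of these cells in the family's levels was not tested.

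For each member, the 5 genes whose log2 CPM followed it most closely over the 6 libraries were picked by Pearson's r among 10557 genes with a mean of at least 5 CPM. The points share the genotype contrast and the depth of each library, so r is given as a description only. Nearest to Gas6 were Hp, which encodes the hemoglobin-binding haptoglobin, Kirrel, Igfbp4, Fstl1 and Prickle2, with r of 0.997 to 0.999. Hp was at a mean of 313 CPM in control and 48.7 CPM in CKO MSCs, and Igfbp4, which binds insulin-like growth factors, was at 1385 and 391 CPM. Nearest to Axl were Ccdc71l, Ywhag, Pea15a, Ccnd1 and Timp1 (r of 0.998 to 1.00). Ccnd1, cyclin D1, was at means of 380 and 620 CPM, and Timp1, a metalloprotease inhibitor, at 173 and 394 CPM. Nearest to Mertk were Dennd4a, Erap1, the leukocyte surface gene Cd84, Fam114a1 and Lrrfip1 (r of 0.990 to 0.997), of which Cd84 had means of 348 and 419 CPM. The neighbours of Pros1 were Rcc1, Ilkap, Kansl2, Commd2 and Med8 (0.995 to 0.998), and those of Tyro3 included Psmd10, Aasdhppt, Srxn1 and Snapc1 (0.985 to 0.991).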

How the data were processed

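The authors mapped reads to mm10 with HISAT2 and deposited unnormalized counts of reads per gene. The counting tool, annotation and use of strand are not given in the sources used here. Of 20163 rows, 92 repeat an ID, leaving 20071, of which 20059 are in GENCODE M21 (GRCm38), the source of gene coordinates. Groups came from the labels, and no pair of libraries of a genotype agreed within sampling noise (chi-square of 2.86 to 106 per gene).

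Genotypes were compared by edgeR 4.0.16 in R 4.3.3 (filterByExpr filter, TMM scaling, quasi-likelihood test, no covariate, Benjamini-Hochberg adjustment over 13733 genes), and tested on simulated data. The standard error of a log2 fold change is its size over the root of the F statistic. Levels per kilobase divide CPM by merged exonic length. Alternatives were RLE and total-count scaling, DESeq2 1.42.0, limma-voom 3.58.1, other filters, a replicate block and leaving out each library; a GC and length correction was chosen after seeing the data.

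The members and lists were chosen with earlier results of these data known. Named are the members, the called genes of each pathway list (up to 5, by p) with its most abundant gene, the leading cell type markers, Ptprc, Adgre1 and Csf1r, Pcif1 and Xist as checks, and 5 genes most like each member. Some genes that this rule picks are not reported here. Socs1, Socs3, Pdgfrb, Ddr2, Fcgr1, Cx3cr1, Adam10, Adam17, Ggcx, Ddx3y, Rhbdf1, Sp7, Alpl, Ibsp, Eng, Pdgfra, Ly6a, Thy1, Bglap, Prrx1 and Dcstamp were named outside that rule after their values were seen, as were the near-absent Ly6g, Mpo and Ngp. Duplicate reads from PCR were not separable here.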

Additional observations from a re-analysis of the deposited data

How the results depend on the processing

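The log2 fold changes of Gas6, Axl, Mertk and Tyro3 kept their sign in all 14 alternatives, and that of Pros1 in 13. Leaving out 1 library at a time gave -0.69 to -0.59 for Gas6, 0.75 to 0.85 for Axl, 0.13 to 0.30 for Mertk, 0.13 to 0.34 for Tyro3 and -0.0025 to 0.13 for Pros1. The 8 other alternatives gave -0.67 to -0.60, 0.77 to 0.86, 0.18 to 0.25, 0.22 to 0.31 and 0.053 to 0.083 in the same order. Counts of calls moved more. With 1 library left out, 324 to 1447 genes were lower, 148 to 1544 higher and 343 to 614 changed at 2-fold or more, the highest of each without control replicate 3, for which the cause was not tested. Over the pathway lists the counts were 6 to 27 lower and 5 to 28 higher, and over the macrophage markers 0 to 1 lower and 1 to 6 higher. The GC and length correction, chosen after seeing the data, called 688 genes higher, 18 of them in the pathway lists. With that correction, with DESeq2 and with no filter on low counts, 4 macrophage markers were higher. Without division by exon length, the Gas6 to Pros1 ratio was 13.7 and 8.31 and the Gas6 to Axl ratio 15.0 and 5.56 in control and CKO MSCs. On that scale Tyro3 was 1.07% and 0.943% of the receptors, and in CKO MSCs Axl was 41.0%, Mertk 58.1% and the Mertk to Axl ratio 1.42. The shift follows from construction, since longer transcripts collect more reads.

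No pairing of the samples by replicate number was shown. Same-numbered libraries deviated together with correlations of 0.055, -0.045 and -0.013, and not every library correlated best with its own number. Deviations from the mean of so few libraries cannot exclude a pairing. With the replicate number as a block, 503 genes were lower, 267 higher and 452 changed at 2-fold or more, with 12 lower and 8 higher in the pathway lists and 0 lower and 2 higher among macrophage markers. The genes Calu, Prrg1, Prrg3, Nr1h3, Fosl1, S100a8 and Pdgfra were not called under that block. The member log2 fold changes with the replicate block were -0.64 for Gas6, 0.082 for Pros1, 0.80 for Axl, 0.20 for Mertk and 0.25 for Tyro3.

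Tyro3, at 126 to 164 counts a library, had the least precise value of the family. An exact two-sided permutation test of 1 value in 3 against 3 libraries cannot go below 0.1. The deposited counts cannot separate cell make-up, sex make-up and genotype.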
